A study of Zea mays with 6 samples.

Results

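The JAZ repressors of mature maize anthers were followed through 10 genes, given by their identifiers on the maize assembly B73 RefGen_v4 out of 31470 genes listed in the deposited files. All 10 identifiers were listed in every library, so 0 were missing. They were taken as JAZ genes (also called TIFY or ZIM genes) from a set list. Whether that list holds every maize JAZ gene was not checked. The family and its total below therefore mean these 10 genes only. Neither the deposited files nor the RefSeq gene table used here pairs these identifiers with names (0 of 10 matched), so their family identity was not checked on sequence and the members are called by identifier only. Of the 10 genes, 9 passed the filter on low values, which asked for 3 or more libraries with an FPKM of 1 or above, and were tested. FPKM counts sequenced fragments per kilobase of gene, scaled by the depth of the library, so levels of different genes can be set side by side.

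JAZ proteins are the repressors at the heart of jasmonate signalling. They bind transcription factors of the MYC type and hold them inactive. When bioactive jasmonate is present, the F-box receptor COI binds the hormone together with a JAZ protein, and the JAZ protein is marked with ubiquitin and degraded. In Arabidopsis, many JAZ genes are themselves switched on by the transcription factors they repress, which makes their transcripts a common readout of jasmonate response, and jasmonate is needed there for stamens to elongate and anthers to open.

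RNA came from mature anthers of the maize inbred line B104, sequenced as 3 wild-type libraries and 3 libraries of plants whose genotype label marks both ZmCOI2a and ZmCOI2b, maize COI genes, as homozygous mutant. The kind of mutation is not given in the sources used here, and reads of B104 were placed on the genome of another line, B73. Nothing in the labels tells if libraries of 1 genotype are from different plants. The p-values therefore reflect only how these libraries vary, and part of that variation may be technical. Both targeted genes were not analysed here, because the files carry no names, and neither the genotype labels nor the tissue label could be set against marker transcripts. Library totals, computed back from the FPKM values, ran from 16845656 to 17759978 reads. Mutant replicate 3 lay nearest to wild type on the first principal component of all tested genes (52.8% of the variance), at 21.9 against 42.9 and 46.3 for the other mutant libraries and -24.3 to -45.8 for wild type.

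The summed FPKM of the 10 genes was carried by few of them. In wild type, Zm00001d048268 (chromosome 9, 153485703 to 153486254) was the highest of the 10 in every library, at 512 ± 197 FPKM (SD, n = 3). By mean FPKM it was number 207 of all listed genes. Zm00001d020409 (chromosome 7, 112014245 to 112017209) came next in every wild-type library at 82.5 ± 20.0 FPKM (SD, n = 3), below every value of Zm00001d048268. The following 5 genes lay close together, with wild-type means of 28.3 for Zm00001d026477, 23.2 for Zm00001d027899, 21.1 for Zm00001d002029, 18.5 for Zm00001d029448 and 16.0 FPKM for Zm00001d027901. These 5 changed places between wild-type libraries, and neighbours among them differed by less than their spread (SD 6.51 to 14.7 FPKM). Zm00001d005813 followed at 10.5 ± 3.08 FPKM, and Zm00001d024455 at 1.85 ± 0.77 FPKM (SD, n = 3 each). Zm00001d003903 (chromosome 2, 66485018 to 66487506) had 1, 0 and 2 reads in the wild-type libraries and 0, 2 and 1 in the mutant libraries. These are the smallest whole reads that its FPKM values allow, and a multiple of them was not excluded. On these reads Zm00001d003903 did not exceed the floor of 3 reads in any library. It was not tested, and no fold is given.

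In the mutant the order at the top was different. Zm00001d020409 was highest in mutant replicates 1 and 3 and Zm00001d048268 in mutant replicate 2, with means of 144 ± 41.8 and 149 ± 48.5 FPKM (SD, n = 3 each), which differed by less than their spread. Zm00001d027899 and Zm00001d027901 held the third and the fourth place in all mutant libraries. In wild type Zm00001d027899 was between the third and the fifth place and Zm00001d027901 lower.

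**Figure D1:**
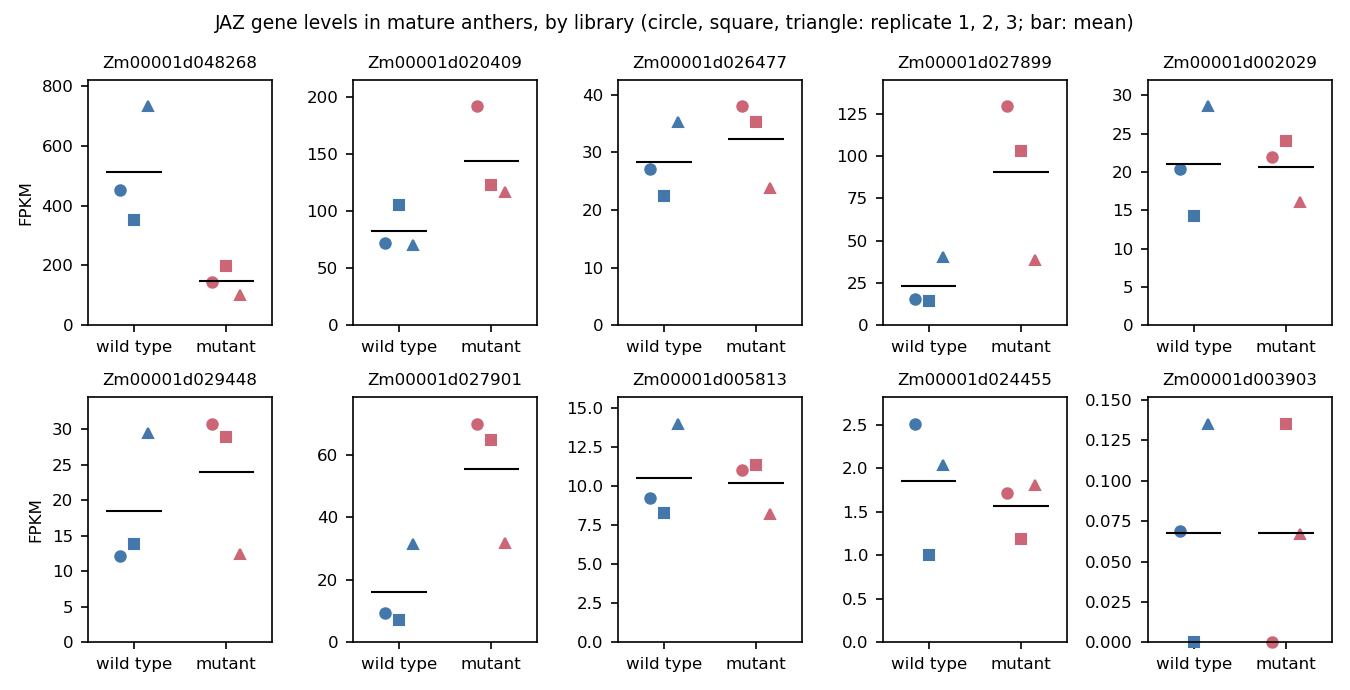
FPKM of the 10 JAZ genes in each library (vertical axes start at 0 and differ between panels), wild type in blue and mutant in red, with a bar at each group mean. Zm00001d048268 is lower in every mutant library than in any wild-type library, Zm00001d020409 and Zm00001d027901 are higher, and the other 7 genes overlap between genotypes.

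Zm00001d048268, the most abundant of the 10 genes in wild type, fell in the mutant. It stood at 451, 352 and 732 FPKM in wild-type replicates 1, 2 and 3 and at 145, 199 and 103 FPKM in mutant replicates 1, 2 and 3. Every mutant library was below every wild-type library, and the mean was 3.43 times higher in wild type. The log2 fold change of FPKM + 1, mutant against wild type, was -1.76 (SE 0.33, 95% interval -2.51 to -1.0, limma adjusted p = 0.0284). Of all tested genes, 0.622% had a lower log2 fold change. It was the 1 member of 9 tested that passed the threshold (adjusted p under 0.05 over 18984 genes), where 6.65% of all tested genes passed, 4.75% as falls and 1.9% as rises. The libraries are bulk tissue, so fewer cells of a type and less RNA per cell cannot be told apart here or in the results that follow. The fall was larger than the spread between replicates with all 6 libraries, and with 1 library left out the call depended on which one. The call held when wild-type replicate 2 (limma adjusted p = 0.0328) or wild-type replicate 3 (0.0282) was left out, where 2.58% and 7.23% of all tested genes passed. It was lost without mutant replicate 1 (limma adjusted p = 0.0964), mutant replicate 2 (0.0818), mutant replicate 3 (0.0568) or wild-type replicate 1 (0.0636). The log2 fold changes were then -1.76, -1.99, -1.51 and -1.81. In those fits 0.284%, 0.263%, 4.42% and 2.15% of all tested genes passed, fewer than with all libraries. The call was also lost with no filter on low values (limma adjusted p = 0.0647), where 0.928% passed.

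A pair of neighbouring members on chromosome 1 had the highest fold changes of the family, in the opposite direction. Zm00001d027899 (17141137 to 17141631, minus strand) and Zm00001d027901 (17156322 to 17156867, plus strand) lie 14690 bp apart. Like Zm00001d048268, both were counted over a single uninterrupted segment as long as the gene, 495 and 546 bp. These are the 3 members of 10 for which the counted length equals the span.

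Zm00001d027899 had 15.2, 14.3 and 40.1 FPKM in wild-type replicates 1, 2 and 3, from 130, 119 and 350 reads. In mutant replicates 1, 2 and 3 it had 129, 103 and 38.7 FPKM, from 1126, 896 and 340 reads. Mutant replicate 3 lay just below wild-type replicate 3, so the genotypes overlapped, while the other mutant libraries were far above all of wild type. The mean was 3.90 times higher in the mutant. The log2 fold change of 1.91 (SE 0.51, 95% interval 0.73 to 3.09) did not pass (limma adjusted p = 0.0608).

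Zm00001d027901 had 9.33, 7.18 and 31.5 FPKM in wild-type replicates 1, 2 and 3, from 88, 66 and 303 reads. In mutant replicates 1, 2 and 3 it had 70.0, 64.8 and 31.9 FPKM, from 672, 621 and 309 reads. Mutant replicate 3 was above wild-type replicate 3 by a narrow margin, so the genotypes did not overlap. The mean was 3.47 times higher in the mutant, and the log2 fold change of 1.94 (SE 0.52, 95% interval 0.75 to 3.13) did not pass (limma adjusted p = 0.0603). Of all tested genes, 99.6% had a lower log2 fold change than each of the pair.

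The call of both genes depended on how the libraries were scaled. On the deposited FPKM scale, all tested genes together had a median log2 fold change of -0.20. Median-of-ratios scaling, which sets each library by the typical gene, moved that median to 0.03. Both genes then rose, Zm00001d027899 by 2.18 (limma adjusted p = 0.0434) and Zm00001d027901 by 2.20 (limma adjusted p = 0.0416) on the log2 scale, and the overlap between genotypes seen for Zm00001d027899 was gone. With that scaling 5.64% of all tested genes passed, 3.48% as rises. Both genes passed as well with upper-quartile scaling (limma adjusted p = 0.0391 and 0.0374, where 6.09% of all tested genes passed) and without wild-type replicate 3 (0.0289 and 0.0101). Without mutant replicate 3, Zm00001d027899 passed (limma adjusted p = 0.0332) and Zm00001d027901 did not (0.0630). Their direction was the same in all 16 alternative settings, with log2 fold changes from 1.57 to 2.43 and from 1.55 to 2.54.

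The pair moved together from library to library. The FPKM of Zm00001d027899 was 1.63, 1.99 and 1.27 times that of Zm00001d027901 in wild-type replicates 1, 2 and 3, and 1.85, 1.59 and 1.21 times in mutant replicates 1, 2 and 3. The ratio therefore had about the same range in both genotypes, and was lowest in replicate 3 of each. The 1 gene listed between them, Zm00001d027900 (17147073 to 17148511, plus strand), which is not a member, was at 26.8, 39.0 and 94.9 FPKM in wild-type replicates 1, 2 and 3 and at 115, 99.7 and 51.4 FPKM in mutant replicates 1, 2 and 3. It was likewise highest in replicate 3 within wild type and lowest in replicate 3 within the mutant, and its log2 fold change of 0.84 (SE 0.47) did not pass (limma adjusted p = 0.272). If the pair share near-identical stretches, the way the authors' counting treated reads of those stretches could affect the values of both genes. This was not tested, since no sequence of these genes was used here.

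Zm00001d020409, the second of the 10 genes by FPKM in wild type, was higher in the mutant without passing the test. It had 72.1, 106 and 69.9 FPKM in wild-type replicates 1, 2 and 3 and 192, 123 and 117 FPKM in mutant replicates 1, 2 and 3. Every mutant library was above every wild-type library, with the lowest mutant value close to the highest wild-type value. The mean was 1.74 times higher in the mutant, and the log2 fold change of 0.78 (SE 0.25, 95% interval 0.20 to 1.36) did not pass (limma adjusted p = 0.0931). It passed in none of the 16 alternative settings, in which the adjusted p ran from 0.0527 to 0.260 and the log2 fold change from 0.56 to 1.06.

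**Figure D2:**
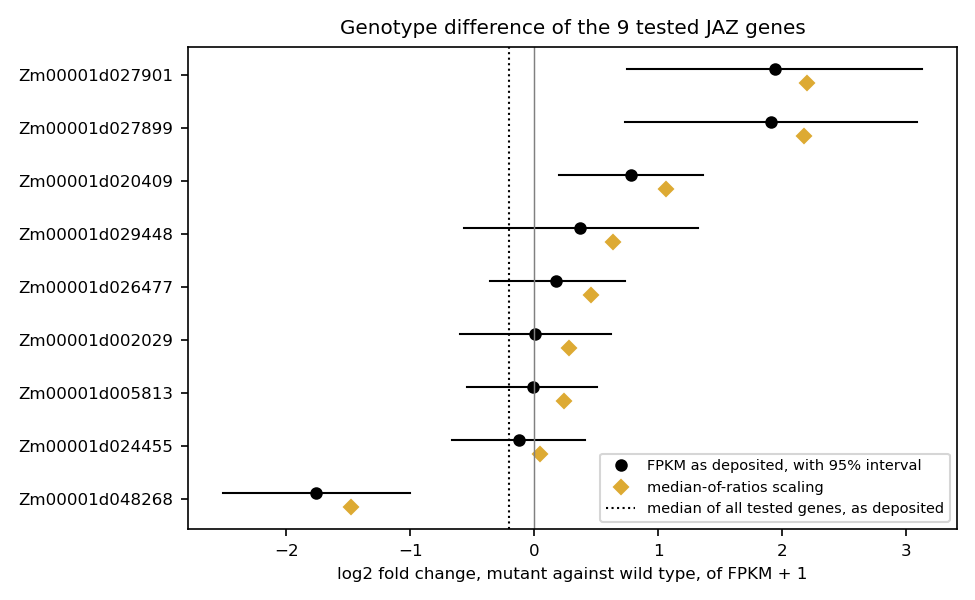
Log2 fold change of FPKM + 1, mutant against wild type, for the 9 tested JAZ genes (black points with limma 95% intervals, FPKM as deposited; yellow diamonds, median-of-ratios scaling). Zm00001d048268 lies at -1.76 and the chromosome 1 pair at 1.91 and 1.94, while the intervals of the lower 5 of the remaining 6 genes span 0. The dotted line marks the median of all tested genes, -0.20.

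The other 5 tested members showed no difference beyond the spread between replicates, with limma adjusted p from 0.576 to 0.986. Zm00001d029448 (chromosome 1, 71161670 to 71164215) had 12.1, 13.8 and 29.4 FPKM in wild-type replicates 1, 2 and 3 and 30.8, 28.9 and 12.5 FPKM in mutant replicates 1, 2 and 3. The libraries thus fell into a low and a high set of 3, each with both genotypes, and the interval of its log2 fold change (0.37) ran from -0.57 to 1.32, which leaves room for a more than 2-fold rise. Zm00001d026477 (chromosome 10, 146705762 to 146709602) had 27.1, 22.5 and 35.3 FPKM in wild type and 38.0, 35.3 and 23.8 FPKM in the mutant, in replicate order, with a log2 fold change of 0.18 (interval -0.36 to 0.73). Its last 149 bp overlap the span of Zm00001d026478 on the other strand. Zm00001d026478 had at most 10 reads in any library, against 1380 to 2439 reads of Zm00001d026477. How reads of the overlap were counted is not given, and their effect on Zm00001d026477 was not tested.

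Zm00001d002029 (chromosome 2, 4666311 to 4670063) had 20.3, 14.3 and 28.6 FPKM in wild type and 21.9, 24.1 and 16.1 FPKM in the mutant, in replicate order. Its log2 fold change was 0.01 (interval -0.60 to 0.62). Zm00001d005813 (chromosome 2, 189505960 to 189508316) had 9.23, 8.27 and 14.0 FPKM in wild type and 11.1, 11.4 and 8.26 FPKM in the mutant. Its log2 fold change was -0.01 (interval -0.54 to 0.51), and its sign turned under 5 of 16 alternative settings. For both genes the genotypes overlapped, and the mutant values spanned a narrower range than those of wild type. Zm00001d024455 (chromosome 10, 71687709 to 71688619) was near the filter, at 2.52, 1.01 and 2.04 FPKM in wild type and 1.72, 1.18 and 1.81 FPKM in the mutant, from 9 to 23 reads a library. Its log2 fold change was -0.12 (interval -0.66 to 0.41), on a scale that understates changes at such low values. These intervals limit, but do not exclude, a change of these genes.

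As a set, most JAZ genes lay above the typical gene, several of them by little, and the most abundant lay far below it. Of the 9 tested, 6 had a positive and 3 a negative log2 fold change, with a median of 0.18 against -0.20 over all tested genes. With median-of-ratios scaling 8 were positive and 1, Zm00001d048268, was negative, with medians of 0.46 and 0.03. On both scales 8 of 9 lay above the median of all tested genes, of which 0 passed the test on the deposited scale (limma) and 2, the chromosome 1 pair, with median-of-ratios scaling. On the deposited scale the 8 lay from 0.08 (Zm00001d024455) to 2.13 (Zm00001d027901) above it. The 95% intervals of the 5 with a limma adjusted p of 0.576 or above included that median. The number above that median was 6 without wild-type replicate 2, 7 with no filter on low values and 8 in every other setting. Genotypes did not overlap for 3 of the 9, beside 35.8% of all tested genes, so that count is near the background. By direction, 2 of 9 were higher in every mutant library (7.27% of all tested genes) and 1 was lower (28.6%). Of the 2, Zm00001d027901 was counted by a narrow margin, 31.9 FPKM in mutant replicate 3 against 31.5 in wild-type replicate 3. With median-of-ratios scaling, compared after seeing the data, 4 of 9 did not overlap, beside 30.7% of all tested genes. Of these, 3 were higher (16.7%), with Zm00001d027899 added, and 1 was lower (14%). An unadjusted p under 0.05 was reached by 4 of 9, beside 28.5% of all tested genes.

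The summed FPKM of the 10 genes overlapped between genotypes, while its make-up did not. The FPKM of the 10 genes summed to 619, 539 and 983 in wild-type replicates 1, 2 and 3, and to 640, 591 and 352 in mutant replicates 1, 2 and 3. The mutant mean was lower by 186 FPKM, less than the pooled SD of 199 FPKM within the genotypes. The difference was -56.7 FPKM with median-of-ratios scaling, -104 with upper-quartile scaling, -51.5 without wild-type replicate 3 and -98.3 without mutant replicate 3. It was larger without mutant replicate 1 (-242) or 2 (-218) and without wild-type replicate 1 (-233) or 2 (-273). Zm00001d048268 made up 72.9%, 65.3% and 74.5% of the sum in wild-type replicates 1, 2 and 3 and 22.7%, 33.7% and 29.1% in mutant replicates 1, 2 and 3. These shares do not depend on the scaling of the libraries. Zm00001d027899 made up 2.45% to 4.08% of the sum in wild type and 11.0% to 20.2% in the mutant. Zm00001d027901 made up 1.33% to 3.20% in wild type and 9.05% to 11.0% in the mutant. The share of Zm00001d020409 ran from 7.11% to 19.6% in wild type and from 20.8% to 33.1% in the mutant, so its ranges came within 2 points of each other. Mutant and wild-type shares did not overlap for 8 of the 10 genes, with 1 lower (Zm00001d048268) and 7 higher in the mutant. A share can move because another member moved, and the fall of Zm00001d048268 alone lowers the sum that the other 9 shares are taken from. Without Zm00001d048268, the remaining 9 genes summed to 168, 187 and 251 FPKM in wild type and 495, 392 and 250 FPKM in the mutant, in replicate order, with wild-type replicate 3 and mutant replicate 3 almost level. No p is given for these sums and shares, because the members were chosen with results of these libraries known.

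**Figure D3:**
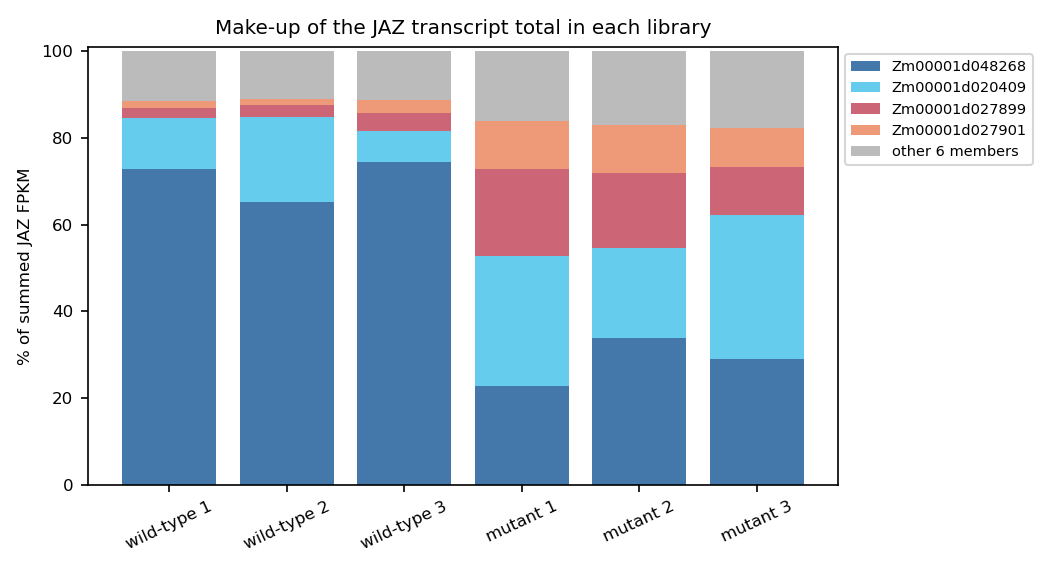
Share of the summed FPKM of the 10 JAZ genes held by the 4 genes that differ most and by the other 6 together, 1 stacked bar per library, in percent. Zm00001d048268 holds 65.3% to 74.5% in the wild-type bars and 22.7% to 33.7% in the mutant bars.

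The values behind these shares can also be read as a ratio of the most abundant members within each library. The FPKM of Zm00001d048268 was 6.26, 3.33 and 10.5 times that of Zm00001d020409 in wild-type replicates 1, 2 and 3. In mutant replicates 1, 2 and 3 it was 0.757, 1.62 and 0.879 times. The lowest wild-type ratio thus lay above the highest mutant ratio. This ratio was chosen after its values had been seen and adds nothing independent to the shares, so it is given without a test.

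Replicates of a genotype differed widely for several JAZ genes, and the libraries that stood apart were those numbered 3. Wild-type replicate 3 was the highest wild-type library for 7 of the 9 tested members, beside 52.9% of all tested genes. Mutant replicate 3 was the lowest mutant library for 8 of 9, beside 35.9% of all tested genes. Of the 9 members, 7 showed both, and the share of all tested genes that showed both was not computed. The pattern held for Zm00001d048268 as well as for the genes with positive fold changes except Zm00001d020409. For Zm00001d020409, replicate 3 was the lowest library of wild type (69.9 FPKM) as well as of the mutant. For Zm00001d048268, 732 FPKM was the highest wild-type value and 103 FPKM the lowest mutant value. For Zm00001d048268 replicate 3 thus lies farthest from the other genotype, whereas for the chromosome 1 pair it lies nearest. What sets these libraries apart was not tested.

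Counting error made up little of this spread. The variance of the reads between libraries of a genotype was 79.2 times what counting alone gives for Zm00001d027899 in wild type and 211 times in the mutant. For Zm00001d048268 it was 722 times in wild type and 154 times in the mutant. Only the least read members came near the counting limit, Zm00001d024455 at 2.86 and 0.676 times and Zm00001d003903 at 0.956 and 1.01 times, in wild type and mutant. The values of Zm00001d003903 rest on the smallest reads that fit its FPKM. On the log2 scale, the spread within genotypes was 0.86 for Zm00001d027899 and 0.87 for Zm00001d027901. Of all tested genes, 98.9% and 99.0% varied less. Zm00001d029448 (0.67) varied more than 97.0% of tested genes, and the other 6 tested members more than 66.2% to 90.8% of them.

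**Figure D4:**
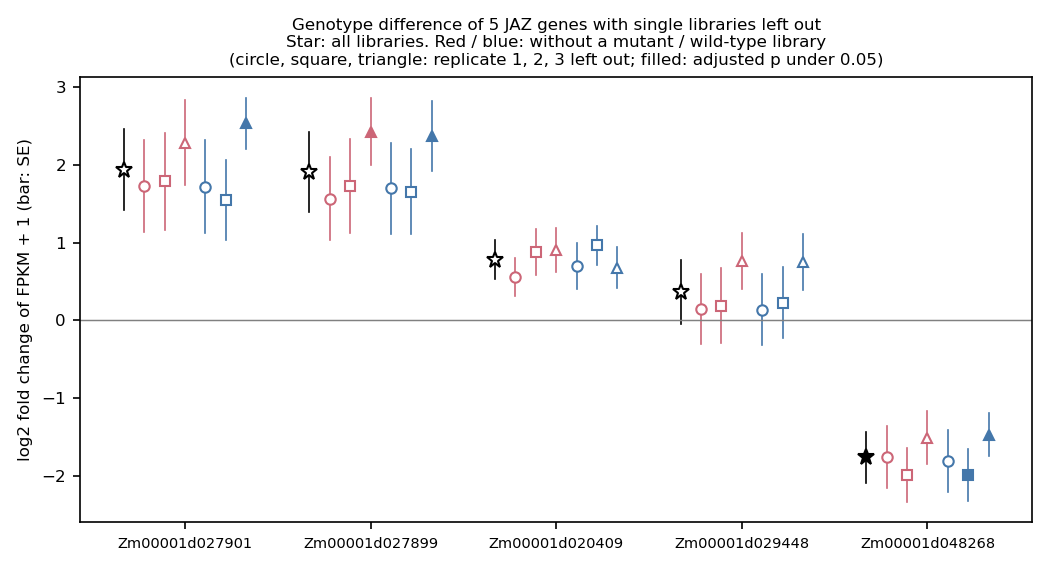
Log2 fold change of FPKM + 1 (points, with SE bars) for 5 JAZ genes with all libraries (star) and with 1 library left out (red, a mutant library; blue, a wild-type library). Filled symbols have a limma adjusted p under 0.05. No gene changes sign, Zm00001d048268 keeps its call without wild-type replicate 2 or 3 only, and the pair at the left gains it without wild-type replicate 3, Zm00001d027899 also without mutant replicate 3.

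Leaving out 1 library showed how far each fold change rests on single samples. For Zm00001d048268 the log2 fold change ran from -1.99 to -1.47 (limma adjusted p 0.0282 to 0.0964). For Zm00001d029448 it ran from 0.14 to 0.77, with the upper values (0.77 and 0.75) when replicate 3 of the mutant or of wild type was left out, and none passed (limma adjusted p 0.219 to 0.866). The number of members passing was 0 when mutant replicate 1, mutant replicate 2 or wild-type replicate 1 was left out (limma), when 0.284%, 0.263% and 2.15% of all tested genes passed. An unadjusted p under 0.05 was then reached by 3, 4 and 3 of the 9. It was 1 when mutant replicate 3 (4.42% of all tested genes) or wild-type replicate 2 (2.58%) was left out, and 3 when wild-type replicate 3 was (7.23%).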

How the data were processed

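RNA of 6 anther libraries was analysed from FPKM values deposited by the authors, 1 file per library. HTSeq 0.6.0, HISAT2 2.1.0 and Bowtie2 2.2.3 are listed with the build B73 RefGen_v4, but with no roles, per the submitters' processing notes. For the annotation release, any filter and the use of strand, the answer is not given in the sources used here. Per the file headers, each row gives a gene's position, strand and span. Library totals were first computed from the FPKM values, as the totals that gave whole reads. Whole reads were computed back from the FPKM by searching, per gene, for the smallest whole-number length that turns all 6 values into whole reads. The tolerance was 0.0001 reads, widened by 3e-09 for each read. This worked for 31465 genes, and for 1.85% of 2000 genes after their values had been perturbed. They serve for read numbers and as input of limma-voom. Floors of 3 reads cover counting error only, while the 95% intervals of fold changes come from the limma fit and reflect the spread between libraries.

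The genotype was the only term of a limma fit (limma 3.58.1, R 4.3.3) to log2(FPKM + 1) with an intensity trend. It ran over the 18984 genes that reached an FPKM of 1 in 3 or more libraries. Tests are two-sided, with Benjamini-Hochberg adjustment over all tested genes. Alternatives were other scalings, pseudocounts of 0.1 and 0.5, other filters, limma-voom, no trend, a replicate block and each library left out with the same genes tested. The members, the tests and the rule for named genes (all members, and listed genes that overlap a member or lie between neighbouring ones) were chosen with earlier results of these data known. The jasmonate pathway list and the anther markers had 0 matched identifiers and were not run.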

Additional observations from a re-analysis of the deposited data

How the results depend on the processing

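Against 1 JAZ gene passing (0 rises, 1 fall), median-of-ratios scaling, upper-quartile scaling and limma-voom with median-of-ratios scaling (added after seeing the data) each gave 3 (2 rises, 1 fall; 5.64%, 6.09% and 5.5% of all tested genes passed), limma-voom on recovered reads 2 (1 rise, 1 fall; 7.35%) and limma with no filter 0 (0 falls; 0.928%), with 4 at an unadjusted p under 0.05. Without 1 library it was 0 to 3, with 0 to 2 rises and 0 to 1 falls. Zm00001d048268 lost its call with no filter (-1.76, limma adjusted p = 0.0647) and ran from -1.99 to -1.47 without 1 library. Zm00001d027899 gained it at 2.18 with median-of-ratios, 2.07 with upper-quartile scaling and 2.20 with limma-voom and median-of-ratios scaling, and Zm00001d027901 at 2.20, 2.10 and 2.25, and at 2.02 with limma-voom alone. Without 1 library they ran from 1.57 to 2.43 and from 1.55 to 2.54. Signs turned in genes called in no setting. Zm00001d005813 was at 0.24 with median-of-ratios, 0.14 with upper-quartile and 0.23 with limma-voom and median-of-ratios scaling, Zm00001d024455 at 0.047 with median-of-ratios and 0.097 with limma-voom and median-of-ratios scaling. Without 1 library, Zm00001d002029 ran from -0.23 to 0.25, Zm00001d005813 from -0.15 to 0.19 and Zm00001d024455 from -0.35 to 0.049. The cause was not tested. The summed FPKM differed by -273 to -51.5 without 1 library.

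Over all tested genes (1262 changed, 361 rises, 901 falls), there were 661 rises and 410 falls with median-of-ratios scaling, 560 and 596 with upper-quartile scaling, 634 and 410 with limma-voom and median-of-ratios scaling, 292 genes (125 and 167) with no filter, and 50 to 1373 genes without 1 library (25 to 634 rises, 24 to 739 falls). The replicate block gave 715 changed genes (468 falls) and changed no call of a JAZ gene. Deviations from the group means correlated at 0.01, -0.38 and -0.33 between libraries numbered 1, 2 and 3. The labels do not say that the number pairs libraries, and a shared batch was not tested. With 9 to 23 reads a library, depth limits what Zm00001d024455 can show, and Zm00001d003903 was below detection of any change.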
